A study of Drosophila melanogaster with 3 samples.

Results

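The nuclear genes for oxidative phosphorylation were taken by symbol from the fly annotation: protein-coding genes whose names begin with ND- (complex I), Sdh (complex II), UQCR (complex III), COX and a digit (complex IV) or ATPsyn (complex V), together with RFeSP and Cyt-c1 of complex III. This gave 90 of 13968 nuclear protein-coding genes, with 40 genes in complex I, 8 in complex II, 11 in complex III, 16 in complex IV and 15 in complex V. Among them were 66 canonical genes and 24 paralogs, the extra copies whose symbols end in L or L and a digit. The rule takes in the assembly factor Sdhaf3, counted here with complex II, and does not reach subunits with other names, such as blw and levy.

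The study had run chromatin immunoprecipitation with sequencing on whole Drosophila melanogaster embryos, males and females pooled, aged 0 to 24 h. The embryos were of a transgenic line in which the protein Dip3 carries GFP at its C-terminal end, an antibody to GFP was used for the pull-down, and the chromatin had been sonicated to 200 to 800 bp. Dip3, a DNA-binding protein with MADF and BESS domains, is made from the gene Dlip3. There were 3 biological replicates, all of this line and in 1 group, and no other genotype, so there was no contrast between conditions to test, and the control sample they name was not analysed here.

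Binding was read from peak lists on build dm6. The IDR set held 3741 peaks, its size set by the authors' cut on reproducibility between replicates. A gene was called bound when the summit of an IDR peak lay within 500 bp of any of its annotated starts. At every bound oxidative phosphorylation gene the strongest IDR peak had the same rank in the list called on the pooled replicates. A single peak of the set can therefore be weak in, or missing from, a replicate. The strongest 3741 regions of each replicate's own list, as many as the IDR set holds, served as that replicate's top list. The signal printed for a region is the authors' own value and is not comparable from list to list, so ranks (1 is the strongest) are given when lists are set side by side. Replicate 3 stood apart in 1 respect: at a q value of at most 0.01 it held 8812 regions, against 2480 in replicate 1 and 3226 in replicate 2. Peak lists hold no expression values, so the label of the embryos could not be checked against marker genes.

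Oxidative phosphorylation runs in the inner mitochondrial membrane. Complexes I and II pass electrons from NADH and succinate to ubiquinone, complex III passes them on to cytochrome c, complex IV hands them to oxygen, and complex V makes ATP from the proton gradient that complexes I, III and IV build. Most subunits are encoded in the nucleus and are needed in every tissue, while flies also carry paralogs of many of these genes, a number of which are known for expression in the testis.

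The sequences under 5 member summits are shown because they stand for the kinds of site found: the member peaks ND-ASHI and ND-51, which rank high in every replicate, the summit of ND-SGDH with a match to TTATATAA, and 2 lower-ranked summits with matches to CGATA (COX8) and TATCGATA (SdhC). Each is the summit base of the IDR peak with 50 bases on either side, read 5′ to 3′ on the strand of the named gene from the RefSeq sequence of Release 6 (dm6). None of them overlaps an annotated exon. Capitals mark the matches just named, and a run in lower case holds none of them.
ND-ASHI, chrX:6679318-6679418, minus strand: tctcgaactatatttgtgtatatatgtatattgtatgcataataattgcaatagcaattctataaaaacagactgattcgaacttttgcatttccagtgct
ND-51, chr2L:6062847-6062947, minus strand: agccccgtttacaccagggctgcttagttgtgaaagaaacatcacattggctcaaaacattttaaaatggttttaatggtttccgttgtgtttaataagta
ND-SGDH, chr3L:12138607-12138707, minus strand: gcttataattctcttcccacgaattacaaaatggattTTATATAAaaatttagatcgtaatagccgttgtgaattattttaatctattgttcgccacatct
COX8, chr3L:21539456-21539556, minus strand: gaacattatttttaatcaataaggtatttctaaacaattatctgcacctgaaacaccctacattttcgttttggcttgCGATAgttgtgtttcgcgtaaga
SdhC, chr3R:11210114-11210214, minus strand: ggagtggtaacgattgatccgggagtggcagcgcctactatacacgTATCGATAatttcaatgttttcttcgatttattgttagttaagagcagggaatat

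Dip3-GFP was found at the starts of 19 of the 90 oxidative phosphorylation genes (21.1%), against 20.3% of all 13968 genes, so the share over the whole set was near the background. The members differed among themselves. The bound genes were 11 of 40 in complex I, 1 of 8 in complex II, 0 of 11 in complex III, 5 of 16 in complex IV and 2 of 15 in complex V. All 19 were canonical genes, so 28.8% of the 66 canonical genes were bound and 0 of the 24 paralogs.

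The replicates gave like totals. Their top lists had a summit at 16, 20 and 21 members in replicates 1, 2 and 3, a mean of 19.0 ± 2.65 members (SD, n = 3). As shares these were 17.8%, 22.2% and 23.3% of the members, against 17.6%, 18.9% and 21.2% of all genes. Among canonical genes alone the counts were 16, 20 and 20 of 66, or 24.2%, 30.3% and 30.3%. Of the 19 bound members, 12 had a peak that overlapped the top lists of all 3 replicates. By peaks, 13 of the 20 member peaks did so (65.0%), against 60.9% of all IDR peaks at promoters. These 13 include the weaker of a pair of peaks at ND-42, which overlaps the replicate 3 region of the stronger one while its own nearest region there ranked 4000. The IDR set was made from these same replicate lists and the pooled list, so support in the replicates is partly built in. Without replicate 2, counting only IDR peaks in the top lists of replicates 1 and 3, 12 members were bound (13.3%), against 13.6% of all genes.

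**Figure D1:**
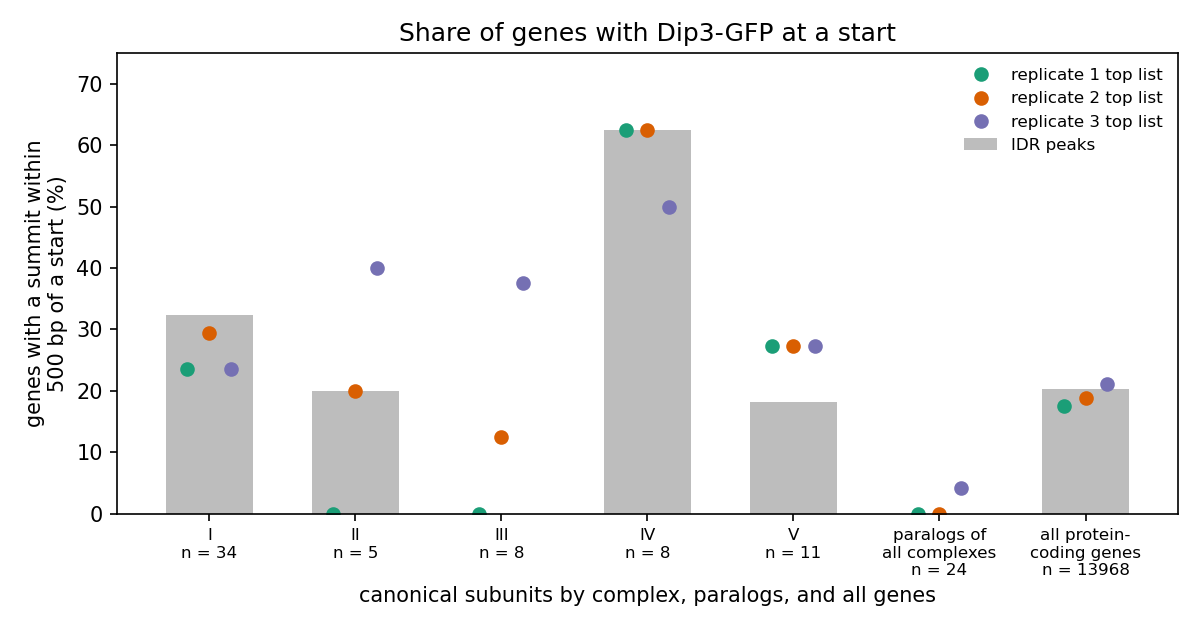
The plot shows the share of genes (in percent) with a summit within 500 bp of a start, for canonical genes of each complex, for all paralogs and for all protein-coding genes; bars are the IDR set and points the top lists of the 3 replicates. Canonical complex IV genes stand at 62.5% in the IDR set and complex III genes at 0%, against 20.3% of all genes; the groups of 5 to 11 genes move by large steps with each gene.

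In complex I, the NADH dehydrogenase, Dip3-GFP was found at 11 of 34 canonical genes and 0 of 6 paralogs. The bound genes lay mostly among the accessory subunits that, by homology with mammals, sit in the membrane arm. Of these, 8 of 17 were bound (47.1%), and of the accessory subunits of the matrix arm 1 of 8 (12.5%), against 20.3% of all genes. In the top lists of replicates 1, 2 and 3 the membrane arm had 6, 7 and 6 of 17 and the matrix arm 0 of 8 each time. Without replicate 1, and likewise without replicate 2, 5 of 17 and 0 of 8 were bound, and without replicate 3, 6 of 17 and 0 of 8. The difference between the arms was not tested. Neither ND-ACP, the mitochondrial acyl carrier protein, nor ND-MLRQ was bound.

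Of the 7 core subunits, which carry the flavin and iron-sulphur clusters of the electron path, 2 were bound. ND-51, which binds NADH and flavin, had its peak at chr2L:6062809-6062971 with the summit 140 bp upstream of its start. This peak ranked 434 of 3741 in the IDR set, with a signal of 321.8, and ranked 383, 655 and 636 in replicates 1, 2 and 3. ND-24, an iron-sulphur subunit that works beside ND-51, had its peak at chrX:17632089-17632234, ranked 575 in the IDR set and 703, 709 and 435 in the replicates. Its summit lay 98 bp downstream of the start, in an intron of the gene, which made it the member summit farthest downstream. Both core subunits were thus strong in every replicate. ND-75, the other core subunit of the NADH-oxidising module, was not bound.

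The other 5 core subunits had no IDR summit within 500 bp. ND-20, which carries the last iron-sulphur cluster before ubiquinone, had a region of rank 3610 in replicate 2, none within 500 bp in replicate 1, and one of rank 11973 in replicate 3. ND-49, which helps form the ubiquinone site, was at rank 3818 in replicate 2 and 8245 in replicate 3, with none listed in replicate 1. ND-23 and ND-30 had their best regions at ranks 5964 and 14641, both in replicate 1, and ND-75 had only a region of rank 8916 in replicate 3. ND-20 therefore entered 1 of the 3 top lists and the other four entered none.

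The 2 strongest member peaks of all lay at accessory subunits of the membrane arm. ND-ASHI had its peak at chrX:6679232-6679505, rank 214 in the IDR set with a signal of 445.4, and ranked 232, 152 and 274 in replicates 1, 2 and 3. Its summit lay 250 bp upstream of the nearest ND-ASHI start and 272 bp upstream of the nearest start of Fum1, the divergent gene for fumarase of the Krebs cycle, and within an intron of a longer Fum1 transcript. ND-MWFE, on chromosome arm 2R, followed at rank 218 with a signal of 440.0, and at ranks 200, 190 and 360 in the replicates. That summit was 184 bp upstream of ND-MWFE and 37 bp from the start of TppII, a peptidase gene, so TppII was the nearer gene.

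ND-SGDH had its peak at chr3L:12138462-12138851, 73 bp upstream of the start, with IDR rank 678 and replicate ranks of 559, 726 and 858. ND-42 was the member with 2 IDR peaks: the stronger ranked 1090, at 293 bp upstream, and the weaker ranked 2346, at 92 bp upstream. The stronger ranked 2303, 970 and 893 in the replicates, and the weaker 3282, 3552 and 4000. The stronger summit was nearer to Cchl, the gene for the lyase that attaches haem to cytochrome c, whose start was 64 bp away. ND-B22 had its summit 2 bp downstream of the start, at chr2L:13370990-13371097, with IDR rank 1439 and replicate ranks of 1667, 2515 and 953.

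The remaining 4 bound complex I genes were weaker, and each lay outside the top list of at least 1 replicate. ND-MNLL, with IDR rank 2778, ranked 2820, 2795 and 4763 in replicates 1, 2 and 3. ND-B17, with IDR rank 2994, ranked 4408, 2105 and 7328. ND-B18, with IDR rank 3564, ranked 4096, 21991 and 2609, the widest spread among member peaks listed in every replicate. ND-13B, the 1 bound accessory subunit of the matrix arm, had IDR rank 3379 but ranked 6297 in replicate 2 and 5426 in replicate 3 and was not listed in replicate 1, so its peak was in none of the 3 top lists. Without replicate 1, and likewise without replicate 2, 7 complex I genes remained bound.

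In complex II, succinate dehydrogenase, SdhC alone was bound. SdhC, a membrane anchor, had its peak at chr3R:11209969-11210358 with IDR rank 3486 and ranked 2172 and 2653 in replicates 2 and 3, with no region listed in replicate 1. The summit was 315 bp upstream of SdhC and 83 bp from Tctp, the gene of the translationally controlled tumour protein. SdhD, the other membrane anchor, was not in the IDR set, yet ranked 1203 in replicate 3, with a summit 4 bp upstream of its start, and had no region within 500 bp in replicates 1 and 2. Without replicate 2 or without replicate 3 no complex II gene was bound. SdhA and SdhB, the flavoprotein and the iron-sulphur subunit, entered no top list.

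Complex III, the cytochrome bc1 complex, had 0 bound genes among 8 canonical genes and 3 paralogs. Its 4 genes with a region in a top list were each in 1 list only. UQCR-C2, a core protein, ranked 1294 in replicate 3, and the small subunit gene UQCR-Q ranked 1576 there. UQCR-14 ranked 3414 in replicate 3, and UQCR-11 ranked 3464 in replicate 2. In replicate 1 none of the 11 genes was in the top list. RFeSP, the Rieske iron-sulphur protein, Cyt-c1, the cytochrome c1 gene, and UQCR-C1 were in no top list.

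Complex IV, cytochrome c oxidase, had 5 of 8 canonical genes bound and 0 of 8 paralogs. In the replicates 5, 5 and 4 of the 8 canonical genes were in the top lists. COX5B had its peak at chr2L:6557443-6557638, IDR rank 515 with a signal of 298.2, and ranked 419, 699 and 667 in replicates 1, 2 and 3. The summit was 274 bp upstream of COX5B and 24 bp from IFT52, a gene of ciliary transport. COX5A, at chr3R:11819363-11819752 with its summit 41 bp upstream of the nearest start, had IDR rank 862 and replicate ranks of 839, 715 and 1444. Both encode nuclear subunits that, in mammals, face the mitochondrial matrix.

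COX6B, at chrX:19744187-19744576, had IDR rank 886 and replicate ranks of 1044, 1840 and 558. Its summit was 47 bp upstream of a start that COX6B shares with CG18809, and 49 bp from the divergent starts of CG33932 and Rpp20, so it cannot be assigned to one gene. COX7B, at chr3L:17425129-17425518 with IDR rank 2119, ranked 1963, 2442 and 2326 in replicates 1, 2 and 3, the closest set of ranks among the complex IV peaks. COX8 had IDR rank 3264 and ranked 1805 and 2557 in replicates 1 and 2, but no region was listed there in replicate 3. COX4, COX7A and COX7C, the 3 canonical genes not bound, were in no top list.

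Complex V, the ATP synthase, had 2 of 11 canonical genes bound and 0 of 4 paralogs. ATPsynE, a membrane subunit, had its peak at chr3R:14326771-14327160, 19 bp downstream of the nearest start, with IDR rank 1344 and replicate ranks of 1728, 1013 and 1572. ATPsynbeta, the catalytic subunit, had IDR rank 3380, and the matching regions ranked 1945, 2021 and 12053 in replicates 1, 2 and 3. Its summit lay 434 bp upstream, the farthest of the member summits, and 75 bp from the start of CG11076. In replicate 3 another region, 50 bp downstream of the ATPsynbeta start, ranked 2019. Peaks at ATPsynE were thus in all 3 top lists, and the IDR peak of ATPsynbeta in 2 of them, so that 1 complex V gene was bound without replicate 1 or without replicate 2.

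Of the 71 unbound members, 10 were in the top list of 1 replicate. Of all 71, 1.41%, 4.23% and 8.45% were in the top lists of replicates 1, 2 and 3. Among all unbound genes the shares were 1.87%, 2.18% and 5.42%. Of the 10, 3 were complex V genes. ATPsynCF6, of the peripheral stalk, ranked 2463 in replicate 1, and ATPsynC, of the c ring, ranked 2291 in replicate 2. ATPsynF, a membrane subunit, ranked 3520 in replicate 3. In the pooled list ATPsynCF6 ranked 3816 and SdhD 3847, just below the 3741 regions that make up the IDR set, while the lowest bound member, ND-B18, ranked 3564. By distance, the bound members nearest to the 500 bp limit were ATPsynbeta at 434 bp and SdhC at 315 bp, and the only unbound member with an IDR summit within 1000 bp was the paralog COX7AL2, at 551 bp.

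**Figure D2:**
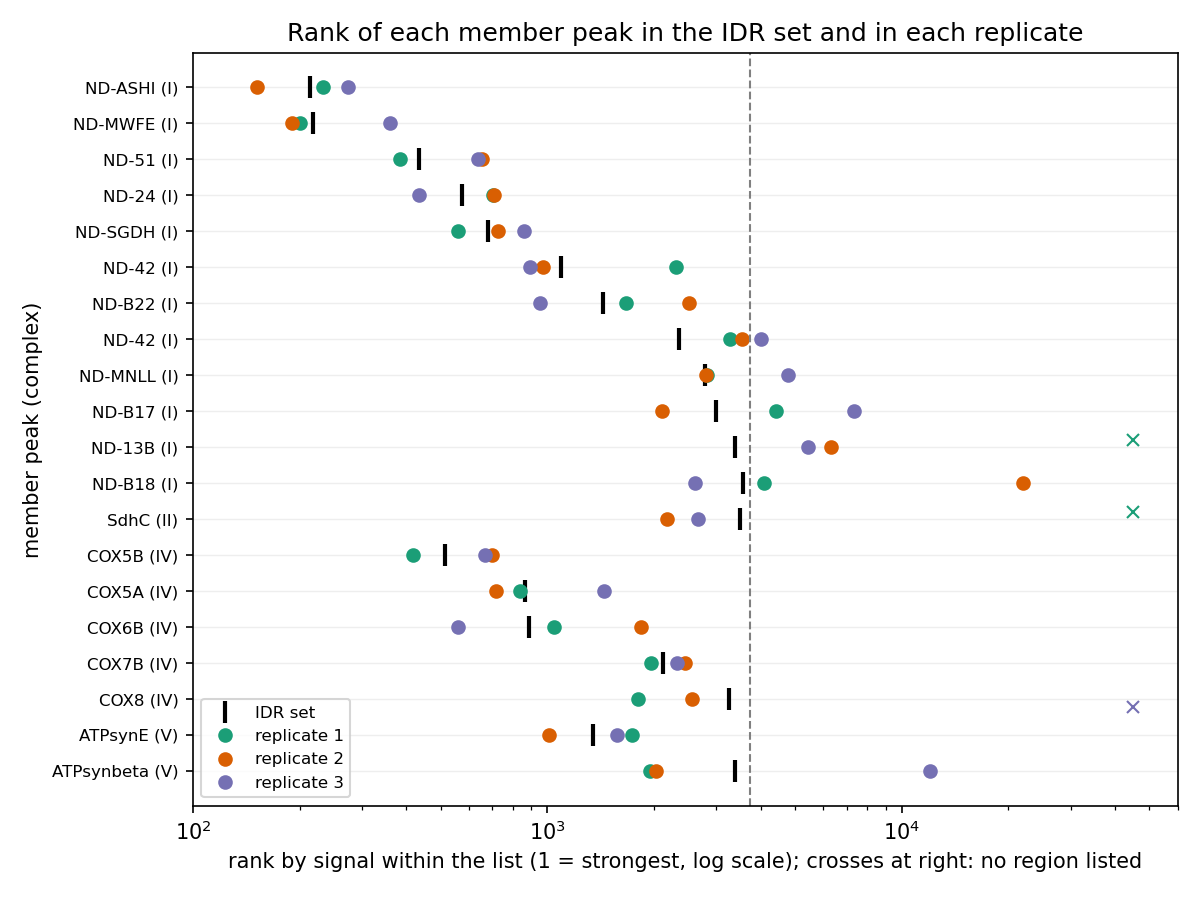
The plot gives the rank by signal (log scale, 1 strongest) of each of the 20 member peaks in the IDR set (black bars) and of the matching region in replicates 1, 2 and 3 (points), with crosses where a replicate lists none and a dashed line at rank 3741. The peaks from ND-ASHI down to ND-SGDH, with IDR ranks of 214 to 678, keep all 3 points left of rank 1000, while ND-B18 and ATPsynbeta have a point far to the right, at ranks 21991 and 12053.

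Across the member peaks the ranks in the IDR set were spread to both ends. With the IDR set cut by rank into 4 equal parts, 8 of the 20 peaks were in the strongest part, 3 in each of the middle ones and 6 in the weakest, or 40.0% in the strongest and 30.0% in the weakest. Of all 2147 promoter summits, 28.3% were in the strongest and 21.9% in the weakest part. The median IDR signal was 171.6 at member peaks, 149.7 at all promoter peaks and 141.1 over the IDR set.

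Summits at the members lay mostly just upstream of the start. Upstream summits made up 17 of 20 (85.0%), against 84.9% of all promoter summits, and the median position was 79.5 bp upstream, against 89 bp. Positions ran from 434 bp upstream to 98 bp downstream, and 12 of 20 (60.0%) were within 100 bp of the start, against 49.1% of all promoter summits. Member positions are from the member's own start, though 7 of the 20 summits were nearer to another gene's start. For all promoter summits the position is from the nearest start of any gene, so these comparisons are not like for like. The matching replicate summits were a median of 9.5, 12 and 7.0 bp from the IDR summit in replicates 1, 2 and 3.

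Most member summits lay near the starts of more than 1 gene. Another protein-coding start lay within 500 bp of 17 of the 20 summits (85.0%), against 41.4% of all promoter summits having more than 1 gene in that range, and 7 of the 20 were nearer to the other gene's start. At 14 of the 17 the summit lay between the member's start and another gene's start. The 85.0% and 41.4% are not like for like, because a summit shared by more than 1 gene had more ways to enter the member list. By gene, 16 of 19 bound members had an opposite-strand start within 1000 bp upstream, as did 1895 of all 2834 bound genes. Besides Fum1 and Cchl, the neighbours included Sec3 of the exocyst (COX7B), VhaM9.7-b of the vacuolar ATPase (COX8), the RNA-binding protein gene glo (COX5A), the meiotic gene corolla (ND-24) and the ubiquitin ligase gene hiw (ND-B18). ND-B22, ND-B17 and ND-13B were the members with no other start within 500 bp of the summit.

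**Figure D3:**
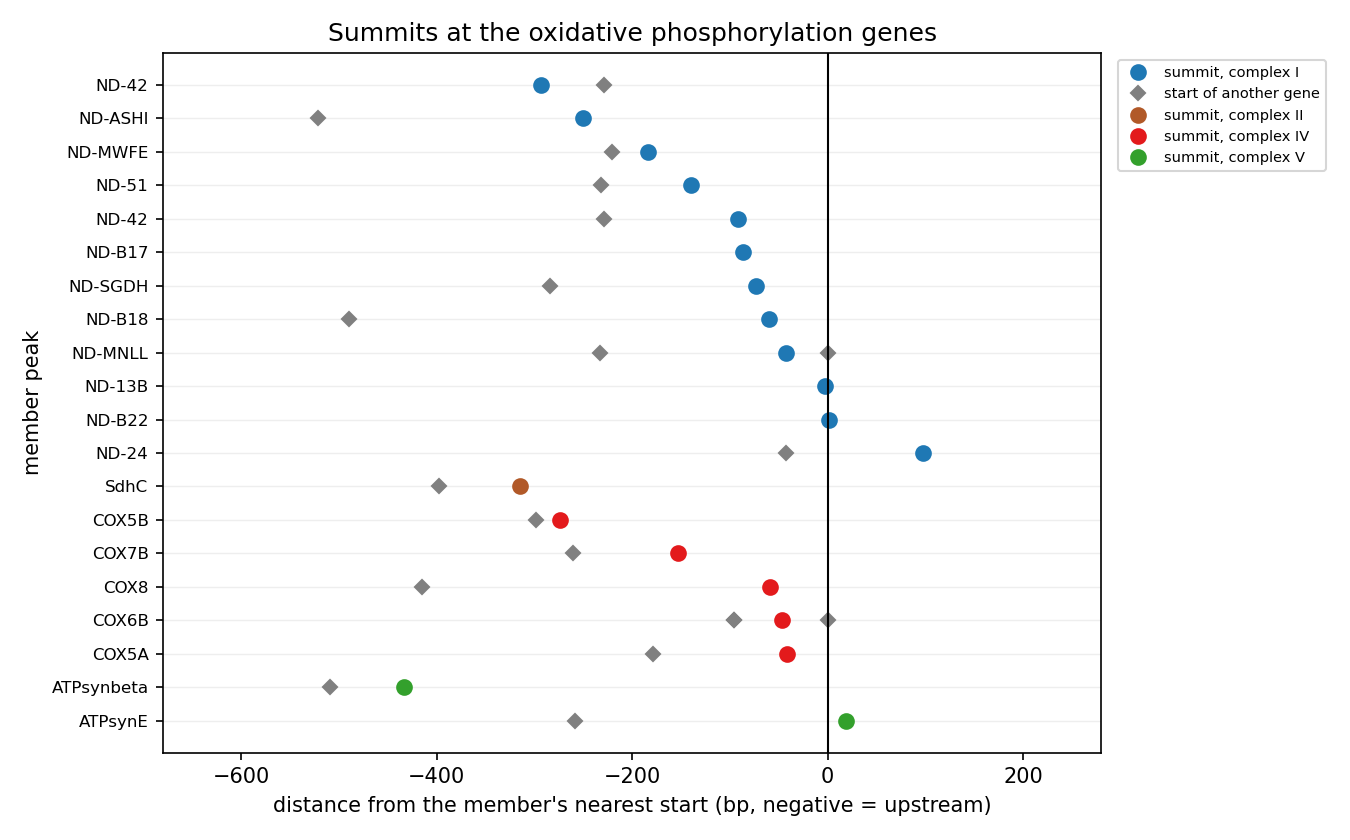
The plot places the 20 member summits by their distance in bp from the member's nearest start (negative is upstream), coloured by complex, with grey diamonds at the starts of other genes within 500 bp of the summit. In 14 rows the summit lies between the 2 starts, and the range runs from 434 bp upstream at ATPsynbeta to 98 bp downstream at ND-24.

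Divergent gene pairs were frequent among the canonical genes. A start on the opposite strand within 1000 bp upstream was found at 41 of 66 canonical genes (62.1%) and 4 of 24 paralogs (16.7%), against 36.2% of all genes. With a divergent start, 16 of 41 canonical genes were bound (39.0%), against 37.5% of the 5052 genes of that kind in the genome. Without one, 3 of 25 were bound (12%), against 10.5% of 8916 genes. Leaving out any of the 3 replicates left 1 of those 3. Within each kind of promoter, the bound share of the canonical genes in the IDR set was thus near that of all genes. In the top lists of replicates 1, 2 and 3 the canonical genes with a divergent start were at 36.6% each time, against 32.3%, 35.3% and 36.9% of all such genes. Those without one were at 4.0%, 20.0% and 20.0%, against 9.26%, 9.67% and 12.2%, so among these 25 genes the share was below that of all genes in replicate 1 and above it in the other two replicates.

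The complexes differed in this layout as well. A divergent start was present at 7 of 8 canonical genes in complex IV, 22 of 34 in complex I, 8 of 11 in complex V, 3 of 8 in complex III and 1 of 5 in complex II. The complex with the highest bound share, IV, thus also had the highest share of divergent starts, but the 3 divergent genes of complex III (UQCR-C1, UQCR-6.4 and Cyt-c1) were all unbound. At the 16 bound members with a divergent start, the closest pair of starts was 20 to 415 bp apart, with a median of 232.5 bp. How much of the difference between complexes goes with promoter layout was not tested.

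**Figure D4:**
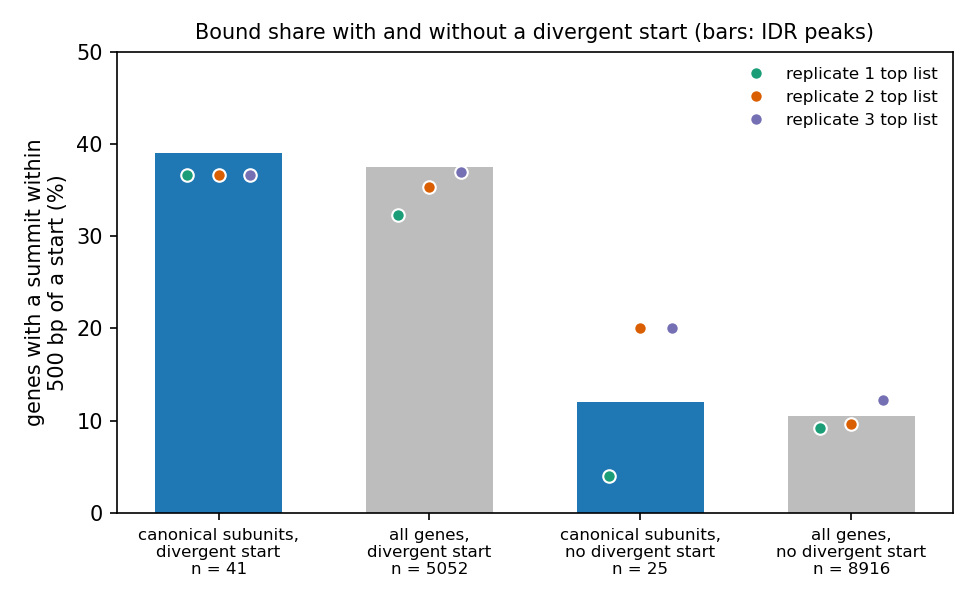
The plot compares the share of genes (in percent) with a summit within 500 bp of a start between canonical oxidative phosphorylation genes and all protein-coding genes, with and without a divergent start within 1000 bp; bars are the IDR set and points the top lists of the 3 replicates. The blue and grey bars are close in each pair, 39.0% beside 37.5% and 12% beside 10.5%.

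Few Dip3-GFP regions were called at the paralogs. None of the 24 was bound in the IDR set, none was in the top lists of replicates 1 and 2, and COX7AL2 alone was in that of replicate 3, at rank 3447 with a summit 471 bp downstream of its start. Of the 24 paralogs, 4 had any region of the relaxed pooled list within 500 bp of a start (16.7%), against 49 of 66 canonical genes (74.2%) and 47.8% of all genes. Those 4, ND-B14.5AL, SdhAL, COX4L and COX5BL, ranked between 13500 and 23102 in that list. At least 1 of the relaxed replicate lists, which include background, had a region at 12 of the 24 paralogs, against 64 of 66 canonical genes (97.0%) and 72.1% of all genes. A divergent start was present at only 4 of the 24 paralogs. Of all genes without one, 10.5% were bound and 36.2% had a region of the relaxed pooled list. How much of the low share at the paralogs goes with this layout was not tested. Near-identical copies can lose reads that map to more than 1 place, and how the authors treated such reads is not given in the sources used here. How alike the paralogs and the canonical genes are in sequence was not measured, and a part of read loss in these counts was not tested.

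**Figure D5:**
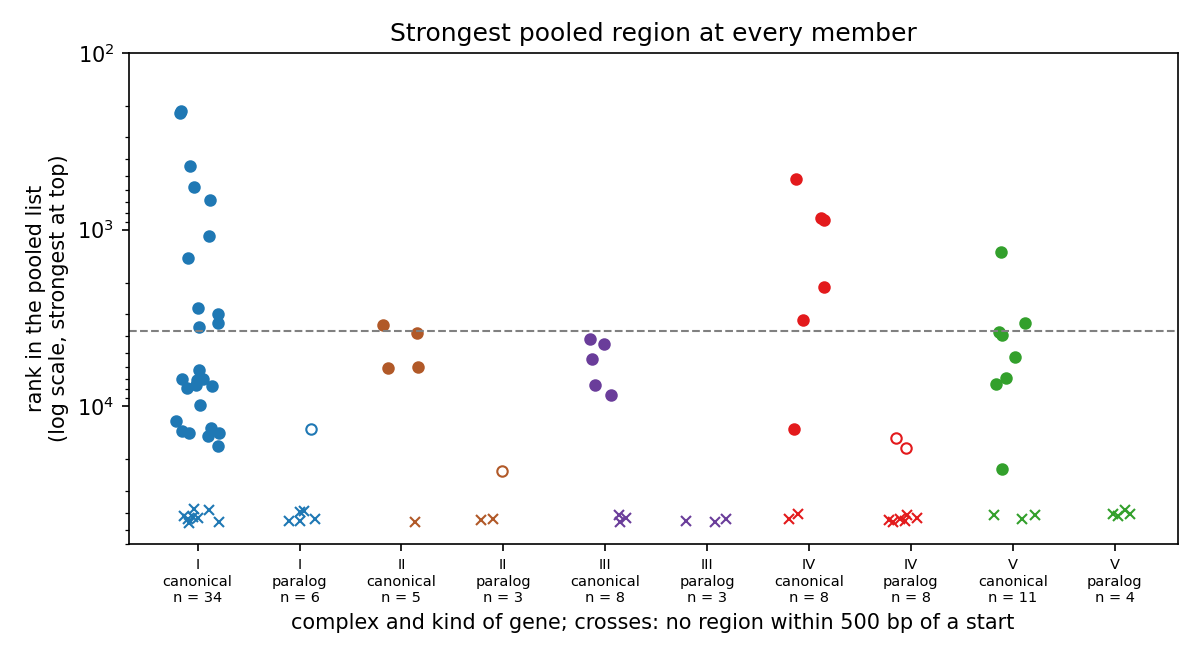
The plot gives the rank (log scale, strongest at the top) of the strongest region of the relaxed pooled list within 500 bp of a start for every member, by complex, with filled circles for canonical genes, open circles for paralogs and crosses for genes with no such region. Canonical genes fill the range from rank 214 downwards, while only 4 paralogs have a region, at ranks of 13500 and beyond; the dashed line is at rank 3741.

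Replicate 3 held many weak regions at the unbound canonical genes. At a q value of 0.01 or less, 46 of 66 canonical genes (69.7%) had a region within 500 bp of a start in replicate 3, against 37.4% of all genes. In replicate 1 the same count was 15 of 66 (22.7%), against 13.9% of all genes, and in replicate 2 it was 18 of 66 (27.3%), against 17.1%. Among the 47 canonical genes that were not bound, 28 (59.6%) had such a region in replicate 3, against 22.2% of all unbound genes, while 1 had one in replicate 1 and 1 in replicate 2.

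These regions of replicate 3 lay closer to the start than the IDR summits did. Their median position was 12 bp upstream and 20 of the 28 (71.4%) were within 100 bp of the start, against a median of 39.0 bp upstream and 56.6% for all unbound genes with a region at this threshold. The median rank of the 28 regions in replicate 3 was 5188, against 5402 for the regions of all unbound genes. The strongest were at SdhD, UQCR-C2 and UQCR-Q, inside the top list of replicate 3, with summits 4 bp upstream, 10 bp downstream and 7 bp downstream of the start, ranks of 1203, 1294 and 1576 in replicate 3, and pooled ranks of 3847, 4163 and 4453. In complex III, 7 of 8 canonical genes had a region at this threshold in replicate 3, and 0 of 8 in each of the other two replicates. Whether replicate 3 differs in depth or in its enrichment over the control cannot be told from peak lists, and its part in these regions was not tested.

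Short motifs were counted on both strands in promoters of 300 bases, from 250 before to 50 after the most upstream start. GGTCACAC, the core of the promoter element Motif 1, was in 17 of 90 member promoters (18.9%), against 7.69% of all promoters. It was in 5 of 19 bound members, 11 of 47 unbound canonical genes and 1 of 24 paralogs. Within 50 bases on either side of the member summits it was found at 0 of 20, against 2.33% of all promoter summits. The element was thus found at bound and unbound canonical genes alike. With a background of 2.33%, 20 short windows are too few to tell whether it is missing under the member summits.

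CGATA, the core recognised by the insulator protein BEAF-32, was in 13 of 19 bound member promoters (68.4%), in 24 of 47 unbound canonical ones (51.1%), in 57.2% of the promoters of all bound genes and in 47.3% of all promoters. Around the summits it was in 6 of 20 windows (30.0%), against 26.7%. The longer TATCGATA, the element bound by the factor DREF, which contains CGATA, was in 9 of 90 member promoters, against 9.36% of all, with 1 of 19 bound members and 8 of 47 unbound canonical genes, and in 1 of 20 summit windows, that of SdhC. The E-box CAGCTG was in 21 of 90 member promoters (23.3%), against 17.6%, with 4 of 19 bound members and 15 of 47 unbound canonical genes, and in 3 of 20 summit windows, against 5.96%. The pattern TTAYRTAA (Y for C or T, R for A or G), of which the ND-SGDH sequence holds 1 match, was in 6 of 90 member promoters (6.67%), against 5.18%, and in 2 of 20 summit windows, against 1.91%. These counts rest on few sequences, and a match says only that the letters are there.

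The other motifs searched were CATCNCTA (the core of Ohler motif 7), the initiator TCAGTY, the TATA box TATAAA, the GAGA repeat GAGAGAG, the Ets core CCGGAAG and the palindrome bound by vertebrate NRF1. CATCNCTA was in 7 member promoters (7.78%), against 6.41%, and TATAAA in 50 (55.6%), against 45.8%. TCAGTY was in 18 (20.0%), against 35.1%, and GAGAGAG in 2, against 5.86%. The Ets core and the NRF1 palindrome, whose vertebrate factors are known as regulators of respiratory chain genes, were in 0 of 90, against 1.09% and 0.208% of all promoters. With backgrounds this low, 90 promoters are too few to tell whether either motif is missing from the members.

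Genes that work beside the respiratory chain were counted the same way. Of 7 genes with other names, for subunits of the complexes or for cytochrome c, 3 were bound. The bound subunit genes were blw, the alpha subunit of ATP synthase (IDR rank 296), and levy, a complex IV subunit (rank 720). Cyt-c-d, a cytochrome c gene (rank 492), was bound with its summit 361 bp downstream of the start. Cyt-c-p, ox, sun and cype were not bound. Of 14 assembly factor symbols listed, 9 matched a gene and 3 of these genes were bound. CIA30, needed to assemble complex I, ranked 57 in the IDR set and 43, 59 and 79 in replicates 1, 2 and 3, above every member. The other bound assembly factors were Ttc19 of complex III (rank 479) and Cox17, a copper chaperone for complex IV (rank 1913).

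Of 13 genes of the Krebs cycle and pyruvate dehydrogenase, 8 were bound (61.5%), against 20.3% of all genes. In the top lists of replicates 1, 2 and 3 the shares were lower, 30.8%, 46.2% and 46.2%, against 17.6%, 18.9% and 21.2% of all genes. The strongest were Fum1 (rank 214, the peak shared with ND-ASHI), the aconitase gene mAcon1 (rank 275), and Idh3g and Idh3b, subunits of isocitrate dehydrogenase (ranks 760 and 918). Ogdh followed at rank 1583, and Pdhb, Scsalpha1 (rank 3487) and ScsbetaA (rank 3719) were weaker. The summit at Ogdh lay 452 bp upstream of the start and that at Scsalpha1 495 bp downstream, both near the 500 bp limit. Of these 8, mAcon1, Fum1 and Idh3b were in the top list of every replicate by rank of the matching region, and Idh3g, Ogdh, Scsalpha1 and ScsbetaA had no matching region listed in replicate 1. The 8 became 5 without replicate 1 and 3 without replicate 2 or without replicate 3. A divergent start was present at 61.5% of the 13 genes, against 36.2% of all genes, and they had a mean of 1.92 annotated starts, against 1.41. How much of their bound share goes with this layout was not tested. Among 7 membrane carriers, Mpcp2, a phosphate carrier (rank 1294), the uncoupling protein gene Ucp4A (rank 1424) and the pyruvate carrier gene Mpc1 (rank 3063) were bound. Of 14 genes for mitochondrial transcription and biogenesis, mtSSB (rank 1525) and PolrMT, the mitochondrial RNA polymerase (rank 3248), were bound, while ewg, Ets97D, srl and TFAM were not. For scale, 36 of 73 mitochondrial ribosomal protein genes (49.3%) and 11 of 33 vacuolar ATPase genes (33.3%) were bound, against 20.3% of all genes. Divergent starts were present at 79.5% of the ribosomal and 42.4% of the ATPase genes, and 37.5% of all genes with a divergent start were bound. In the 3 top lists the ribosomal genes were at 31.5 to 41.1% and the ATPase genes at 21.2 to 27.3%.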

How the data were processed

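Peak lists of 3 biological replicates of 1 group, numbered in the labels, were used on dm6. Per the file headers, regions were called on each replicate's alignments and on the pooled alignments, and the IDR set was made from these lists; the sources used here do not name the aligner, the caller or the IDR threshold. The deposited signal is the authors' own value per region. The deposited −log10 q values, also the authors', were used only at the 0.01 level. Depth per sample is unknown. Replicate lists hold 30000 regions each and the pooled list 23524; both are relaxed lists.

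Starts came from Ensembl release 115 (BDGP6 patch 54) and sequence from Release 6. Counts were made in Python 3.11.15 with pandas 2.3.3 and numpy 2.4.6. A replicate region matched a peak on 1 bp of overlap, and where several did, the one with the nearest summit was reported. The motif search was checked on short made-up sequences, for CATCNCTA on both strands and for TATCGATA, and not for the other motifs. No test was run, since there is 1 group and gene sets were only described; the counts of genes carry no replicate error, and mean ± SD is over replicates.

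Members and lists were chosen with earlier results of these data known. Named were every bound member, every unbound member in a top list, all complex I core subunits, members just outside 500 bp and every bound gene of the other lists; unbound genes named beside them were added after their values were seen. The paralogs COX6AL, COX6AL2, COX6CL and ATPsynepsilonL are named after genes outside the symbol rule and were added to the 20 that the name rule gives. Alternatives were other windows, the most upstream start, stricter peaks, other overlaps and top lists, and each replicate left out. The dm3 lists were not used.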

Additional observations from a re-analysis of the deposited data

How the results depend on the processing

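The count of 19 bound members stayed within 1.5-fold with windows of 200 bp (15) and 1000 bp (20), and was 19 using only each gene's most upstream start. The 200 bp window left 0 in complex II and 1 in complex V, and the 1000 bp window added 1 paralog, COX7AL2. Bound Krebs cycle genes numbered 6 with the 200 bp window and 6 with the most upstream start. With the upper 50% of IDR peaks by signal there were 11 bound members, all canonical: 7 in complex I, 0 in II, 3 in IV and 1 in V, with 10 that have a divergent start and 1 that has none, and 5 Krebs cycle genes; 11.7% of all genes were then bound. Leaving out each replicate in turn, by keeping IDR peaks in the top lists of the other two, gave 12 to 15 bound members and as many canonical genes: 7 to 8 in complex I, 0 to 1 in II, 4 to 5 in IV and 1 to 2 in V. It gave 11 to 14 with a divergent start, 1 each time without one and 3 to 5 Krebs cycle genes, while all genes fell to 13.6 to 14.6%. ND-13B, ND-B17 and ND-B18 were lost each time. Members supported in all 3 top lists numbered 12, and 6 with top lists of 1000 regions. The mean number of members per top list, 19.0, became 8.0 with 1000 regions and 12.3 with 2000, by construction. In the short windows around the summits in place of promoters, CGATA was at 6 of 20 against 13 of 19 promoters, GGTCACAC at 0 against 5, and CATCNCTA at 0 against 3. The cause of these differences was not tested, though the summit windows are shorter and the stricter sets hold fewer peaks. All alternatives for the Krebs cycle count, the counts with and without a divergent start and the complex I arms, and the paralog name rule, were added after seeing the data; divergent windows of 500 or 2000 bp and the name rule moved no count by over 1.5-fold. No paired analysis was possible because there is 1 group. Depth sets a limit that peak lists do not show.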
